A study of Mus musculus with 8 samples.

Results

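This account covers 10 genes of the Notch pathway in hepatic stellate cells of the mouse. They are the receptors Notch1, Notch2 and Notch3, the ligands Jag1, Jag2, Dll1 and Dll4, and the target genes Hey1, Hey2 and Heyl. The members were defined by gene symbol and role in the pathway, with earlier results of these data known. All 10 were found among the 19938 genes measured, and each was represented by 1 probe set. The knockout group consisted of 4 arrays, numbered 5 to 8, of cells from Mx1Cre+ mice with floxed Lhx2. The control group consisted of 4 arrays, numbered 1 to 4, of cells from Lhx2 floxed animals that lacked the Cre transgene. Both groups had a C57BL/6J background and had received 3 doses of the interferon inducer poly(I:C), a synthetic double-stranded RNA. Livers were taken 2 weeks afterwards, and no label used here gives an age. Cells were sorted as vitamin A-positive by their retinoid autofluorescence. Mx1Cre is driven by an interferon-responsive promoter that is active in many cell types, so loss of Lhx2 in stellate cells cannot be told apart from loss in other cells. Effects of the Cre transgene itself cannot be told apart from either. The labels do not say whether the arrays came from separate animals, so p-values reflect only array-to-array spread, which may be technical.

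Notch receptors are membrane proteins that bind ligands of the Jagged and Delta-like families on a neighbouring cell. Binding lets an ADAM protease and then the gamma-secretase complex cut the receptor, and the freed intracellular domain enters the nucleus, joins the DNA-binding protein RBPJ and a Mastermind coactivator, and switches on genes of the Hes and Hey families. In the liver the pathway is best known for Jag1 and Notch2 in bile duct formation and for Dll4 and Notch1 in endothelium, while Notch3 is typical of pericytes and vascular smooth muscle.

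Values are log2 expression levels, so a difference of 1 is a doubling, and they ran from 4.19 to 14.42 over all arrays. Lhx2, the deleted transcription factor gene, had levels of 11.09, 11.24, 11.35 and 11.49 on the knockout arrays and 12.07, 11.88, 11.94 and 11.92 on the control arrays. This was 63.3% of the control level, with non-overlapping groups (limma adjusted p = 0.00136; exact two-sided permutation p = 0.0286, the smallest that 4 against 4 arrays allow). Whether its probes lie outside the floxed part was not tested, nor was the share of cells that carried the deletion. The stellate cell markers Lrat (retinol esterification) and Des (desmin) had means of 13.75 ± 0.03 and 12.50 ± 0.07 in the knockout group and 13.65 ± 0.15 and 12.42 ± 0.10 in the control group (SD, n = 4 each), with limma adjusted p of 0.633 and 0.688. Of 11 measured stellate cell markers, 0 rose and 4 fell, namely Gfap (log2 difference -1.48), Tcf21 (-0.49), Hand2 (-0.48) and Reln (-0.26). Marker levels of other liver cells differed between arrays. The mean log2 level of 16 endothelial markers lay between 8.65 and 9.88 on the knockout arrays and between 8.62 and 10.99 on the control arrays. For 12 hepatocyte markers the ranges were 8.98 to 10.48 in the knockout group and 8.62 to 10.73 in the control group. Control 4 had the highest endothelial mean and control 1 the highest hepatocyte mean. In such sorted samples, fewer cells of a type and less RNA per cell cannot be told apart.

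Of the 10 genes, Hey2, Notch3 and Notch2 rose in the knockout, Hey1, Dll4 and Notch1 fell, and Jag1, Jag2, Dll1 and Heyl did not pass the test. A gene counted as changed when its adjusted p in limma was under 0.05 over all genes measured. Among all genes, 3.76% rose and 3.63% fell by that rule, 7.38% in either direction. For 8 of the 10 genes, all but Jag2 and Dll1, the knockout arrays all lay on one side of the control arrays, which was so for 12.7% of all genes. The median log2 difference of the 10 genes was -0.17, against -0.02 over all genes. All 10 had mean levels above 6.77, the 95th percentile of 1190 olfactory and vomeronasal receptor genes, which served as a guide to the level of unexpressed genes.

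**Figure D1:**
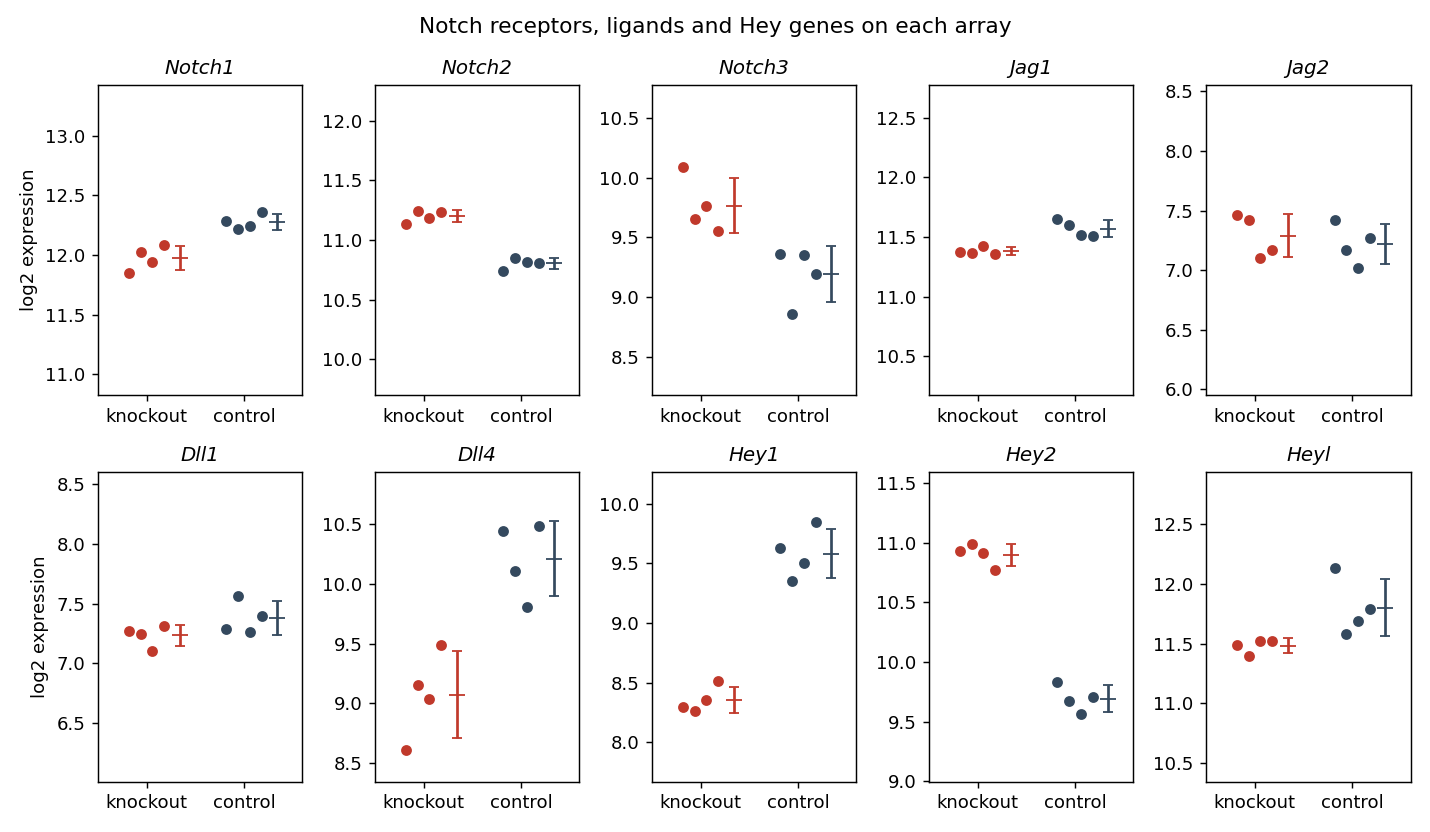
Log2 expression (vertical axes, each spanning the same range) of the 10 genes on the 4 knockout arrays (red) and the 4 control arrays (dark blue), with bars for the mean and SD beside the points. The groups do not overlap for Notch1, Notch2, Notch3, Jag1, Dll4, Hey1, Hey2 and Heyl, and they overlap for Jag2 and Dll1.

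The Hey genes encode basic helix-loop-helix repressors that bind DNA downstream of Notch, and they did not move together. Hey2, a repressor known for its roles in arteries and heart, had log2 levels of 10.93, 10.99, 10.92 and 10.77 on the knockout arrays and 9.83, 9.67, 9.56 and 9.70 on the control arrays. The lowest knockout array was 0.93 log2 units above the highest control array. The rise was 2.31-fold (95% interval 2.06 to 2.58; log2 difference 1.21, SE 0.07; limma adjusted p = 9.16e-06).

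Hey2 is also the member whose promoter held the letters bound by RBPJ, and its sequence is shown for that reason. The run below comes from RefSeq (GRCm38.p6, chr10:30842781-30843033, minus strand), starts 250 bases before the annotated start of the gene and ends with a match that spans that start. Capitals mark GTGGGAA, read on either strand, so that the first match appears as its reverse complement.
Hey2: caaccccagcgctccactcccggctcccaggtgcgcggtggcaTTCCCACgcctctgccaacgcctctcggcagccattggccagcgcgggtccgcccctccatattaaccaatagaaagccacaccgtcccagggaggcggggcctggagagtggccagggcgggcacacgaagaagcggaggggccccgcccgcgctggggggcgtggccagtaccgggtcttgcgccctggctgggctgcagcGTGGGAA
The first match lies 207 to 201 bases before the start, and the second runs from 4 bases before it to base 3 of the transcript. Promoter windows of 300 bases were at hand for 8 of the 10 genes, in 9 windows because Dll1 has 2. Hey1 and Heyl had no entry. Only the Hey2 window held GTGGGAA or the shorter TGGGAA, which every GTGGGAA contains. Among 32851 windows of the same length, 6.38% held GTGGGAA at least once and 0.256% at least 2 times, and 25.6% held TGGGAA. Neither TAATTA, a core bound by LIM homeodomain proteins, nor CACGTG, an E-box, was in any of the 9 windows, against 5.29% and 7.15% of all windows. Such matches describe the letters only, and no binding was measured here.

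Hey1, which overlaps with Hey2 in function in developing vessels, fell. It had log2 levels of 8.30, 8.27, 8.35 and 8.51 on the knockout arrays and 9.63, 9.35, 9.51 and 9.84 on the control arrays. Every knockout array was below every control array, by a gap of 0.84 that was wider than the range within either group. The knockout retained 42.7% of the control level (0.427-fold, 95% interval 0.364 to 0.502; log2 difference -1.23, SE 0.10; limma adjusted p = 8.28e-05). Within each array, the log2 value of Hey2 minus that of Hey1 averaged 2.54 ± 0.20 in the knockout group and 0.11 ± 0.20 in the control group (SD, n = 4 each). The distance between both genes thus moved by 2.43 log2 units, and no test was made of it.

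Heyl, the third Hey gene and a known target of Notch3 in mural cells, had log2 levels of 11.49, 11.40, 11.52 and 11.53 on the knockout arrays and 12.14, 11.58, 11.69 and 11.79 on the control arrays. The groups did not overlap, but the nearest arrays were only 0.05 apart and control 1 stood above the other controls. The log2 difference of -0.32 (SE 0.11, 95% interval -0.56 to -0.07) did not pass after adjustment (limma adjusted p = 0.139). It was -0.20 without control 1.

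Among the receptors, the 3 genes went different ways by modest amounts. Notch2, the receptor known for bile duct formation, had log2 levels of 11.13, 11.24, 11.18 and 11.24 on the knockout arrays and 10.74, 10.85, 10.82 and 10.81 on the control arrays. Replicates lay close together in both groups. Its rise was 1.31-fold (95% interval 1.22 to 1.42; log2 difference 0.39, SE 0.05; limma adjusted p = 0.00113).

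Notch3, the receptor of pericytes and smooth muscle, had log2 levels of 10.09, 9.66, 9.76 and 9.56 on the knockout arrays and 9.36, 8.86, 9.35 and 9.20 on the control arrays. The groups were separate, but each spread widely, with control 2 lowest and knockout 5 highest. The rise was 1.49-fold (95% interval 1.20 to 1.85; log2 difference 0.57, SE 0.14; limma adjusted p = 0.0365). The call was lost when control 2, control 4, knockout 5, knockout 6 or knockout 7 was left out, with adjusted p of 0.0754, 0.0827, 0.0754, 0.0701 and 0.0809 in limma, although the difference stayed between 0.46 and 0.64.

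Notch1, the receptor known from T cell development and endothelium, had log2 levels of 11.85, 12.02, 11.94 and 12.09 on the knockout arrays and 12.28, 12.22, 12.24 and 12.36 on the control arrays. All knockout arrays were lower, by a gap of 0.13 between the nearest arrays. The knockout retained 81.2% of the control level (log2 difference -0.30, SE 0.06; limma adjusted p = 0.0208). Leaving out control 4, knockout 5 or knockout 7 ended the call, with limma adjusted p of 0.0647, 0.052 and 0.058. Within arrays, Notch2 minus Notch1 averaged -0.78 ± 0.06 in the knockout group and -1.47 ± 0.09 in the control group (SD, n = 4 each), a shift of 0.69. The probe set of Notch4, the endothelial receptor outside the 10 genes, averaged 8.45 ± 0.10 in the knockout group and 8.73 ± 0.19 in the control group (SD, n = 4 each; limma adjusted p = 0.132).

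**Figure D2:**
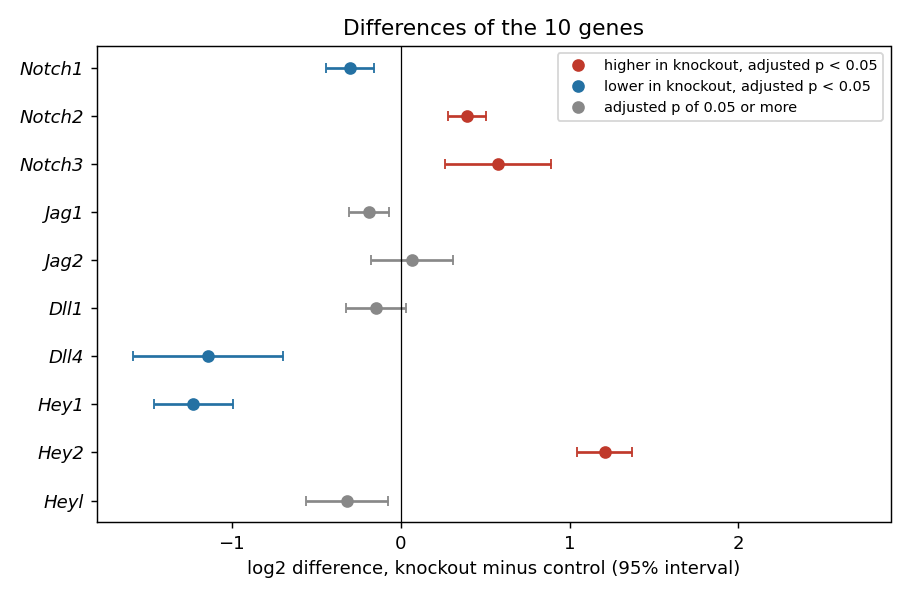
Log2 difference, knockout minus control (horizontal axis), with its 95% interval from limma for each of the 10 genes. Hey2, Notch3 and Notch2 (red) were higher and Hey1, Dll4 and Notch1 (blue) lower in the knockout, and the 4 genes in grey did not pass the adjusted threshold.

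Of the 4 ligands, Dll4 fell and the other 3 did not pass. Dll4, the Delta-like ligand of arterial and sprouting endothelium, had log2 levels of 8.61, 9.15, 9.03 and 9.49 on the knockout arrays and 10.44, 10.11, 9.81 and 10.49 on the control arrays. The highest knockout array lay 0.32 below the lowest control array, and the arrays spread over 0.88 in the knockout group and 0.68 in the control group. The knockout retained 45.4% of the control level (log2 difference -1.14, SE 0.20, 95% interval -1.59 to -0.70; limma adjusted p = 0.00687).

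Because Dll4 and Notch1 are both used by endothelium, their levels were set beside the endothelial markers of each array. In the knockout group Dll4 and Notch1 ran in the same order as the endothelial mean, with knockout 5 lowest (8.65), then knockout 7 (9.33), knockout 6 (9.51) and knockout 8 (9.88). The control group did not keep that order for either gene. Control 4, with the highest endothelial mean of all arrays (10.99), also had the highest Dll4 (10.49) and Notch1 (12.36) levels. Controls 3, 2 and 4 kept the order for Dll4, at 9.81, 10.11 and 10.49. Control 2 had the lowest Notch1 level of the control group (12.22) at an endothelial mean of 10.54. Control 1 stood out for Dll4: its endothelial mean of 8.62 was the lowest of all arrays, and its Dll4 level of 10.44 was the second highest. With the endothelial mean as a covariate, the log2 differences were -1.05 for Dll4, -0.27 for Notch1, -1.20 for Hey1 and 1.18 for Hey2 (limma adjusted p = 0.0161, 0.0488, 0.0003 and 3.98e-05). That of Notch3 was 0.46 with the covariate (limma adjusted p = 0.0457) and 0.57 without it. Among the knockout arrays Notch3 ran in the reverse order of the endothelial mean, at 10.09, 9.76, 9.66 and 9.56 for arrays 5, 7, 6 and 8. Of the 16 endothelial markers, 0 rose and 1 fell, Clec4g, a sinusoidal lectin (-1.23). The differences of 15 of the 16 were below 0, with a median of -0.55, and 1 further marker came near the threshold, Gpr182, a sinusoidal receptor (mean log2 level 9.88 in the knockout group and 10.87 in the control group, limma adjusted p = 0.0695; chosen after its value was seen). Stab2, Cdh5 and Pecam1 had log2 differences of -0.36, -0.32 and -0.47 with wide spread (limma adjusted p = 0.896, 0.904 and 0.766). Of 8 arterial markers, 0 rose and 0 fell, and 3 of the 8 had means under 6.77. The summed linear level of the endothelial markers ranged from 17483 to 26907 in the knockout group and from 19280 to 45900 in the control group. Eng, the brightest of the 16, weighs heavily in these sums, with means of 13.56 in the knockout group and 13.50 in the control group. It varied little between arrays, with SDs of 0.08 and 0.03 in these groups, against 0.73 and 1.62 for Stab2. Of the 16, 0 had a mean under 6.77. Without both control 1 and control 4, Dll4 had a log2 difference of -0.89 (limma adjusted p = 0.0842), and Hey1 and Hey2 kept their calls at -1.07 and 1.28 (limma adjusted p = 0.000873 and 0.000203).

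**Figure D3:**
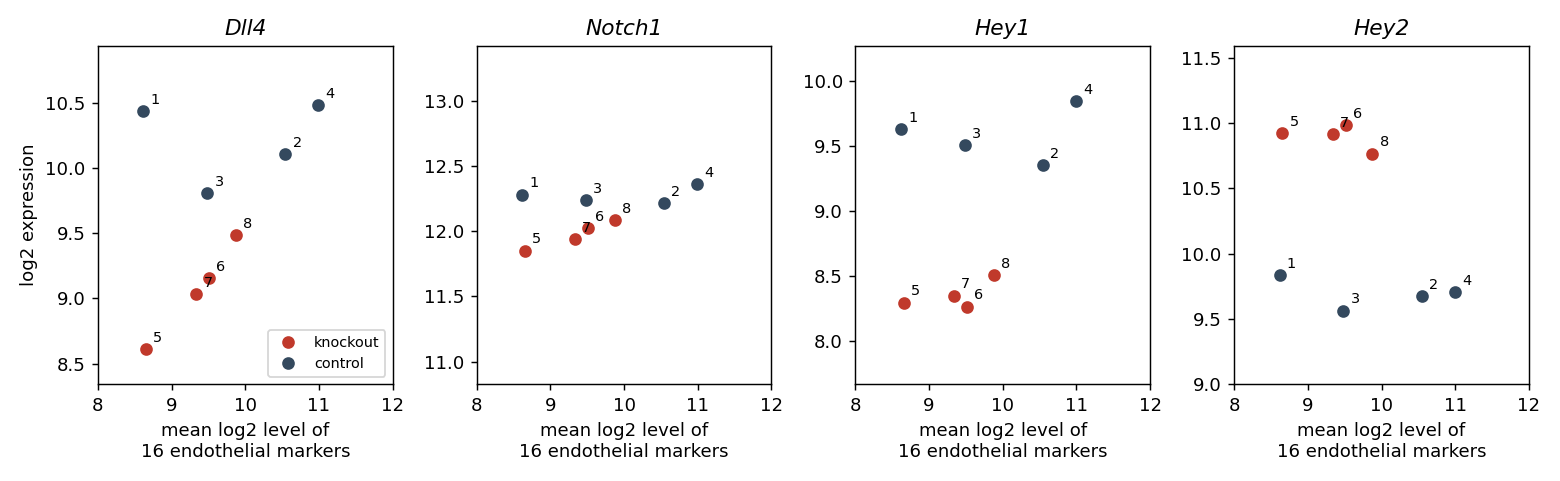
Log2 expression of Dll4, Notch1, Hey1 and Hey2 (vertical axes) against the mean log2 level of 16 endothelial markers (horizontal axes) on each array, numbered as in the labels, with knockout in red and control in dark blue. Control 1 has the lowest endothelial mean (8.62) and a Dll4 level of 10.44, and the knockout arrays lie apart from the controls for Hey1 and Hey2.

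Jag1, the Jagged ligand that is mutated in Alagille syndrome, had log2 levels of 11.38, 11.37, 11.43 and 11.35 on the knockout arrays and 11.65, 11.60, 11.52 and 11.51 on the control arrays. The groups did not overlap, and the knockout arrays agreed within 0.07. The log2 difference of -0.19 (SE 0.05, 95% interval -0.31 to -0.07) had a limma adjusted p of 0.0651, and with array weights the adjusted p in limma was 0.0387. It did not pass in the other 18 of 19 alternatives, with limma adjusted p of 0.0655 to 0.173 when 1 array was left out.

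Jag2, the other Jagged ligand, and Dll1, a Delta-like ligand of lymphoid and many embryonic tissues, were dim, with group means between 7.22 and 7.38. Jag2 had 7.46, 7.42, 7.10 and 7.17 on the knockout arrays and 7.42, 7.17, 7.01 and 7.27 on the control arrays. Dll1 had 7.27, 7.25, 7.11 and 7.31 on the knockout arrays and 7.29, 7.57, 7.26 and 7.40 on the control arrays. The groups overlapped for both genes. The 95% intervals of the log2 differences ran from -0.17 to 0.31 for Jag2 and from -0.32 to 0.03 for Dll1 (limma adjusted p = 0.859 and 0.425). Dll3, Dlk1, Dlk2 and Dner, further ligands or ligand-like proteins, had log2 differences of -0.06, 0.01, -0.05 and -0.11, none of which passed. Dll3 and Dner had means under 6.77 in both groups, so their differences say little.

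The rest of the pathway was measured through 79 of 83 listed genes, of which 1 rose, 6 fell and 72 did not pass. The share that passed, 8.86%, was near the 7.38% of all genes, and the median log2 difference was -0.02. Of the 44 measured genes that act before the nucleus, 0 rose and 2 fell (4.55%). Of 9 measured genes for the proteases that cut Notch, non-catalytic subunits of gamma-secretase included, only Psen2, a catalytic subunit of gamma-secretase, fell. Its log2 levels were 10.75, 10.67, 10.69 and 10.71 on the knockout arrays and 11.33, 11.30, 11.55 and 11.48 on the control arrays. The groups lay well apart, with a log2 difference of -0.71 (SE 0.07; limma adjusted p = 0.000149) that kept its call under all 19 alternatives. Adam10, the protease of the first cut after ligand binding, averaged 10.70 ± 0.07 in the knockout group and 10.63 ± 0.16 in the control group (SD, n = 4 each).

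Of 9 sugar transferases that decorate the EGF repeats of Notch, Eogt, which adds GlcNAc, fell by 0.40 (SE 0.10; limma adjusted p = 0.0412), a call that survived the removal of knockout 7 but of no other array (adjusted p of up to 0.126). Lfng, Lunatic fringe, averaged 7.10 ± 0.07 in the knockout group and 7.32 ± 0.31 in the control group (SD, n = 4 each; limma adjusted p = 0.496). None of 6 ubiquitin ligases of the ligands and none of 12 regulators of receptor turnover passed.

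Among 20 measured genes for RBPJ and its cofactors, 1 rose and 4 fell. Rbpj itself rose, with log2 levels of 10.83, 10.98, 10.91 and 10.89 on the knockout arrays and 10.52, 10.64, 10.70 and 10.50 on the control arrays. Those groups did not overlap (log2 difference 0.31, SE 0.06; limma adjusted p = 0.0138). A second, dimmer probe set of Rbpj averaged 5.92 in the knockout group and 6.02 in the control group, so the call rests on the brighter one, and it was also lost without knockout 6 (limma adjusted p = 0.0521). The fallen genes were Tle1 (-0.69, SE 0.12) and Tle3 (-0.39, SE 0.06), corepressors of the Groucho family that Hes proteins recruit, Maml3 (-0.35, SE 0.08), a Mastermind coactivator, and Ctbp2 (-0.28, SE 0.05), another corepressor. Their limma adjusted p were 0.00585, 0.00273, 0.024 and 0.0119. For Maml3, only control 3 or knockout 8 could be left out without ending the call (limma adjusted p of up to 0.0775).

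Other Notch targets did not pass, in either direction, for 15 of 15 measured genes. Of these, 3 had means under 6.77, the guide to the level of unexpressed genes, so their differences say little. Hes1, the most widely used target, had log2 levels of 11.43, 11.22, 11.09 and 11.53 on the knockout arrays and 11.50, 11.67, 11.72 and 12.08 on the control arrays. Only knockout 8 reached into the control range, and control 4 was highest (log2 difference -0.42, SE 0.13; limma adjusted p = 0.109). With array weights and with the hepatocyte marker level as a covariate it passed, the limma adjusted p being 0.0453 and 0.0361. It did not pass in the other 17 of 19 alternatives. With 1 array left out, the limma adjusted p of Hes1 lay between 0.066 and 0.261. Nrarp, a feedback inhibitor that Notch induces, averaged 6.96 ± 0.12 in the knockout group and 6.99 ± 0.17 in the control group (SD, n = 4 each). Both means of Nrarp lay only a little above 6.77, which limits what can be seen for it. Hey1 is also induced by BMP signalling. Of 8 BMP-induced genes, listed with earlier results of these data known, 0 rose and 3 fell, against 3.76% and 3.63% of all genes. The fallen genes were Id3 (-1.55, SE 0.13), Id1 (-1.11, SE 0.19) and Id4 (-0.76, SE 0.19), with limma adjusted p of 8.66e-05, 0.00732 and 0.044. The Id4 call was lost without control 2 or 4 or any 1 knockout array (limma adjusted p of up to 0.126). The mean log2 level of these 8 genes ranged from 9.69 to 10.01 on the knockout arrays and from 10.28 to 10.71 on the control arrays, and its part in the fall of Hey1 was not tested.

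**Figure D4:**
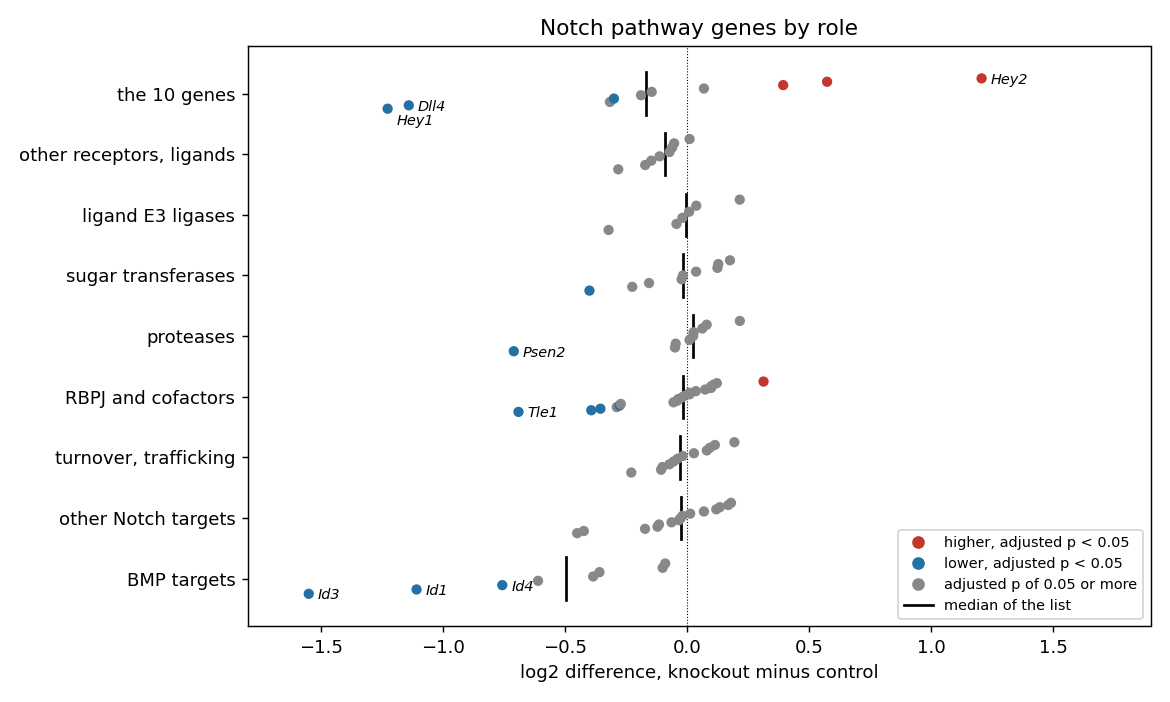
Log2 difference, knockout minus control (horizontal axis), of each measured gene, by its role in the Notch pathway (rows) and for BMP-induced genes (lowest row), with black bars for the median of each list. Most pathway genes lie near 0, and Hey2, Hey1, Dll4, Psen2 and Tle1 stand farthest out among the Notch genes.

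The genes whose pattern over the 8 arrays was nearest to a member were found by the root mean square difference of log2 values, after the mean of each gene had been taken off. For Hey2 these were Mdk, a heparin-binding growth factor, Nid2, a basement membrane protein, and Bicc1, an RNA-binding protein, at distances of 0.10, 0.10 and 0.11. They had log2 differences of 1.13, 1.18 and 1.24. For Hey1 they were Nkain2, Mcam, an adhesion molecule of pericytes and endothelium, and Esam, an adhesion molecule of tight junctions, at 0.14 each, with log2 differences of -1.31, -1.09 and -1.46. For Dll4 they were Il10ra, an interleukin-10 receptor chain, Kcnk5, a potassium channel, and Rasl11a, a small GTPase, at 0.14, 0.19 and 0.21, with log2 differences of -1.22, -0.88 and -0.88. For Notch3 they were Clstn2, a calsyntenin, Mmp17, a membrane-bound metalloprotease, and Gpm6b, a membrane glycoprotein, at 0.09, 0.09 and 0.12, with log2 differences of 0.54, 0.44 and 0.56. These 12 genes were chosen for their likeness, so their differences are a description.

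**Figure D5:**
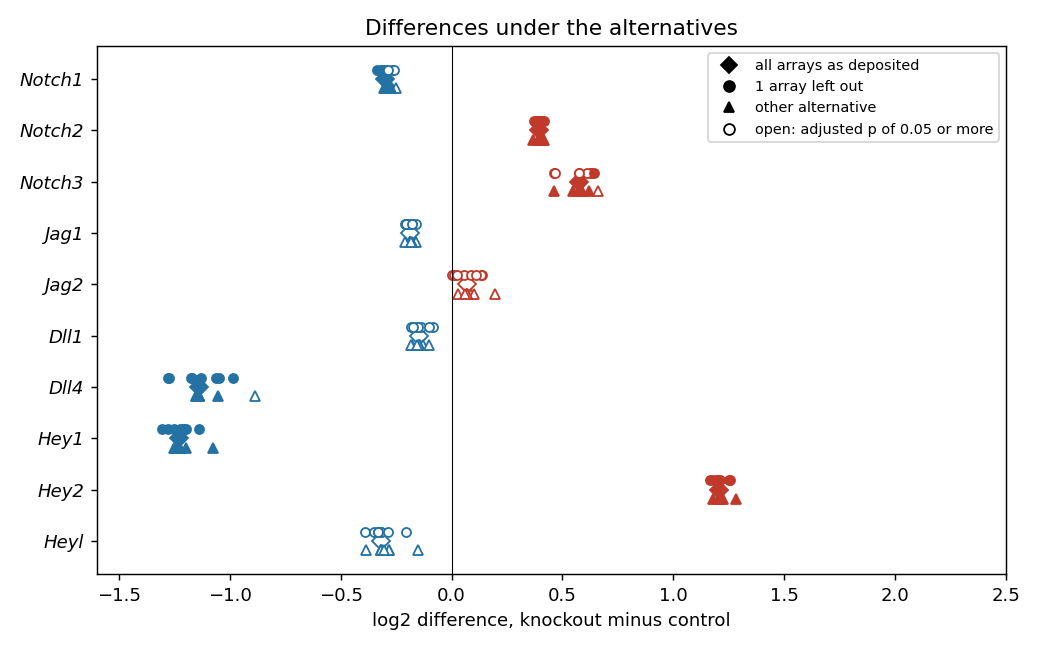
Log2 difference, knockout minus control (horizontal axis), of the 10 genes with all arrays as deposited (diamonds), with 1 array left out (circles) and under the other alternatives (triangles). Filled symbols have an adjusted p under 0.05 in limma. Hey1, Hey2 and Notch2 are filled throughout, and the symbols of Notch1 and Notch3 are open in part. Dll4 is open only without both control 1 and control 4, and Jag1 is filled only with array weights.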

How the data were processed

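The deposited values are on a log2 scale with a value for each probe set on each array, and the authors obtained them with the Robust Multichip Algorithm (RMA), per the labels' protocols and the notes on processing by the submitters. RMA compresses differences of very dim and very bright probe sets. No version, genome build or batch is given in the sources used here. Of 35556 probe sets, 21789 had 1 gene symbol in the platform annotation, and those with several were left out. The probe set with the highest mean stood for a gene, which gave 19938 genes.

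Knockout minus control was fitted over all 8 arrays with limma 3.58.1 (R 4.3.3; lmFit, eBayes). Tests were two-sided, p-values were adjusted over all genes by the Benjamini-Hochberg method, and intervals are moderated 95% intervals. The step was tested on simulated data. Lhx2 also had an exact permutation test over 70 assignments. The members and the gene lists were chosen with earlier results of these data known. Named genes were the 10 members, up to 6 changed genes of each pathway list, up to 3 of each marker list, a few fixed genes (such as Notch4, Rbpj, Hes1 and Stab2) and the 3 nearest genes in pattern to Hey1, Hey2, Dll4 and Notch3. Reln, Acta2, Dlk2, Dner, Gpr182, Eng, Entpd2, Thy1, Msln, Pi16 and Gli1 were named in addition, with their values known. Alternatives covered 2 scalings, a filter on dim genes, robust fitting with a trend, array weights, other uses of probe sets, arrays left out, 2 covariates and a threshold of 0.01. Promoter sequences came from RefSeq (GRCm38.p6).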

Additional observations from a re-analysis of the deposited data

Results flagged for a closer look

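In 36 named genes and 2 groups each, 72 sets of 4 arrays were checked for an array far from the others, and 3 had one. Chance gives about 1 in 20. The Notch4 level of 9.01 on control 4 lay above 8.62 to 8.65 on the other control arrays, and control 4 had the highest endothelial mean. The Eogt level of 10.92 on control 1 lay above 10.64 to 10.66 on the other control arrays. The Id4 level of 7.38 on knockout 7 lay below 7.78 to 7.87 on the other knockout arrays.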

How the results depend on the processing

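With each array left out in turn, 502 to 790 genes rose and 487 to 677 fell, of the 10 Notch genes 2 to 3 rose and 2 to 3 fell, and the Lhx2 difference lay between -0.73 and -0.59. Without both control 1 and control 4, in a fit of fewer arrays, 371 genes rose and 405 fell, and of the 10 genes only Hey1 (1) still fell. In that fit Notch1, Notch3 and Dll4 lost their calls (limma adjusted p = 0.189, 0.115 and 0.0842). At an adjusted p under 0.01, 386 genes rose and 389 fell, and Notch1 and Notch3 were no longer called. Hey1, Hey2, Notch2, Psen2, Tle1, Tle3, Id1 and Id3 kept their calls under all 19 alternatives. Over 27 genes, the members included and the rest from the pathway and BMP lists, 462 values kept their side of the threshold, 47 lost it, 3 gained it and 0 reversed. Median centring and quantile normalization moved the median of all genes by 0.002 and 0.014 on the log2 scale. Median centring ended the call of Id4. No paired analysis was possible because the control arrays carry the numbers 1 to 4 and the knockout arrays 5 to 8. The number of arrays, and for Jag2 and Dll1 a level not far above that of unexpressed genes, limit what can be seen.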

Other observations

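Markers of other cell types that use Notch were measured too. Of 8 vascular smooth muscle markers, Tagln rose (log2 difference 0.77) and Smtn fell (-0.36), and Acta2 averaged 9.06 in the knockout group and 9.30 in the control group without passing. Of 12 portal fibroblast markers, 5 rose and 0 fell, led by Cd34 (3.08), Dpep1 (2.37) and Dpt (2.28). The other 7 did not pass. Differences below 0 were seen for 5 of the 12, namely Entpd2 (-0.29), Thy1 (-0.10), Msln (-0.02), Pi16 (-0.01) and Gli1 (-0.01). The mean log2 level of the 12 ranged from 8.46 to 8.64 on the knockout arrays and from 7.69 to 7.84 on the control arrays, and the genes with the largest rises weigh most in it. Krt19 and the other bile duct markers were dim, with 4 of 6 under the 95th percentile of receptor genes, and 0 of 6 passed. Of 10 Kupffer cell and macrophage markers, Cd68 fell (-0.61), while Clec4f did not pass (-0.45, limma adjusted p = 0.0517). Of 12 hepatocyte markers, Alb included, and of 7 lymphocyte markers, 0 passed.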
